A study of Mus musculus with 6 samples.

Results

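Interferon-stimulated genes are the transcripts that cells switch on when interferons, or RNA of a virus, are detected. The 34 genes described here comprise 5 sensors of RNA or other nucleic acids, 4 transcription factors, 19 effectors and 6 modifiers, which attach or remove ISG15, ubiquitin or ADP-ribose. They were chosen by gene symbol, with earlier results of these data known. All 34 were found among the 24879 lines of the expression table. Sensors of the RIG-I family bind double-stranded or uncapped RNA in the cytosol and signal through the mitochondrial adaptor MAVS to the kinases that activate IRF3 and IRF7. Secreted interferon then acts through its receptor and the JAK kinases on factors that include STAT2 and IRF9 and that bind response elements in the promoters of the effectors, so that sensors and transcription factors are themselves targets of the pathway.

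The cells were 661W, an immortalised mouse line derived from retinal tumours of mice that express a viral T antigen in photoreceptors, and described as cone-like. For 24 h the cells of the 3 Light libraries were lit by a fluorescent lamp of cold white colour (2000 ± 100 lux), and for as long those of the 3 Dark libraries received no light. All grew in DMEM with 10% fetal bovine serum and antibiotics, and the labels name no other agent or allele. The labels do not say that the replicates came from separate cultures, so p-values measure only the spread between these libraries, which may be technical.

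Levels are in FPKM, a fragment count divided by the length of the transcript and the size of the library. Read totals are not given, so the depth behind each value is unknown. The FPKM of a library summed to 464998 ± 6164 in Light and 420934 ± 12025 in Dark (SD, n = 3 each). Cone markers were close to absent: all 13 had a mean under 1 FPKM, Gnat2, the cone transducin gene, was the highest at 0.920 FPKM, and 4 were listed at 0 in every library. Of 12 macrophage and leukocyte markers 11 had a mean under 1 FPKM, the pan-leukocyte gene Ptprc at 0.0063 FPKM in Light and 0.0187 FPKM in Dark, and the exception was Cd68, a lysosomal glycoprotein gene, at 8.12 FPKM in Light and 3.49 FPKM in Dark. The summed level of these 12 markers was 8.54 to 10.2 FPKM in Light and 3.99 to 5.40 FPKM in Dark. Of 7 fibroblast markers 4 were tested and all 4 fell, with a summed level of the 7 of 346 to 375 FPKM in Light and 698 to 807 FPKM in Dark. Of 5 Müller glia markers 2 were tested and both fell, with a summed level of the 5 of 34.8 to 36.4 FPKM in Light and 53.8 to 57.4 FPKM in Dark. The endothelial marker Flt1, the 1 tested of 5, fell (4.08 FPKM in Light and 6.69 FPKM in Dark). Of 6 pigment epithelium markers 2 were tested and 1, Rdh5, rose (8.49 FPKM in Light and 6.61 FPKM in Dark). The part of these markers in the results was not tested. In such bulk libraries a smaller share of expressing cells and less RNA per cell cannot be told apart.

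All but 1 of the interferon-stimulated genes whose level changed were lower in Light, among them the sensor gene Ddx58, the factor gene Irf1 and the effector gene Oasl2, and Bst2 was higher. Of the 34 genes, 26 averaged 1 FPKM or more across the libraries and were tested. Of these 26, 10 fell, 1 rose and 15 did not pass an adjusted p of 0.05 (limma on log2(FPKM + 1), Benjamini-Hochberg over all 11068 genes tested). Among the 26 that is 38.5% lower and 3.85% higher, against 16.4% lower and 19.2% higher over all genes tested (35.6% in either direction). Their median log2 change was -0.25, against -0.01 for all genes tested. With a mean of at least 5 FPKM required, 15 of the 26 were tested, with 3 lower and 1 higher. Shares of all genes by direction were not computed at this filter, so these counts cannot be set against them. Their median was then -0.03, against 0.04 for all genes, of which 3437 were called. The changes were moderate: the largest was -0.72 on this scale, and 0 of the 26 fell by 2-fold or more. Groups that did not overlap were found for 14 of the 26 with Light below Dark and for 2 with Light above, against 24.4% and 28.2% of all genes tested (52.6% in either direction). Since the list was chosen with earlier results of these data known, these comparisons describe it and do not test it.

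The number of calls depended on single libraries. Against 11 calls among the 26, there were 9 without Light 1, 5 without Light 2 and 3 without Light 3. There were 7 without Dark 1, 12 without Dark 2 and 3 without Dark 3. Calls over all 11068 genes moved too, from 3938 to 3469 without Light 1 and to 1313 without Light 2. The groups of all 11 called genes did not overlap, so leaving libraries out could not reverse their direction. Dark 1 and Light 2 lay farthest out on the first principal component of all genes. Light 2 was the lowest library for 9 of the 10 genes that fell, and Dark 1 the highest for 6 of them. Over all 11068 genes, which include those that rose, Light 2 was lowest for 3828 and Dark 1 highest for 3760. These are smaller shares, and no such count was made over all genes that fell. Without Dark 1 and Light 2 together, 4 genes were lower and 1 higher, and calls over all genes also fell, to a count given below. Scaling the libraries to equal FPKM totals moved the median of all genes to -0.13 and that of the 26 to -0.35, with 15 of the 26 lower and 1 higher (26.2% and 11% of all genes). With each library's trend with transcript length and GC content removed, 10 were lower and 1 higher (17.6% and 21.4% of all genes). With no filter on low values 7 were lower (5.75% of all genes) and 1 higher: Ifih1, Zbp1, Rtp4 and Parp14 lost their calls and Ifi44 gained one. Quantile normalization ended the calls of Zbp1 (-0.11) and Ifit1 (-0.24).

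**Figure D1:**
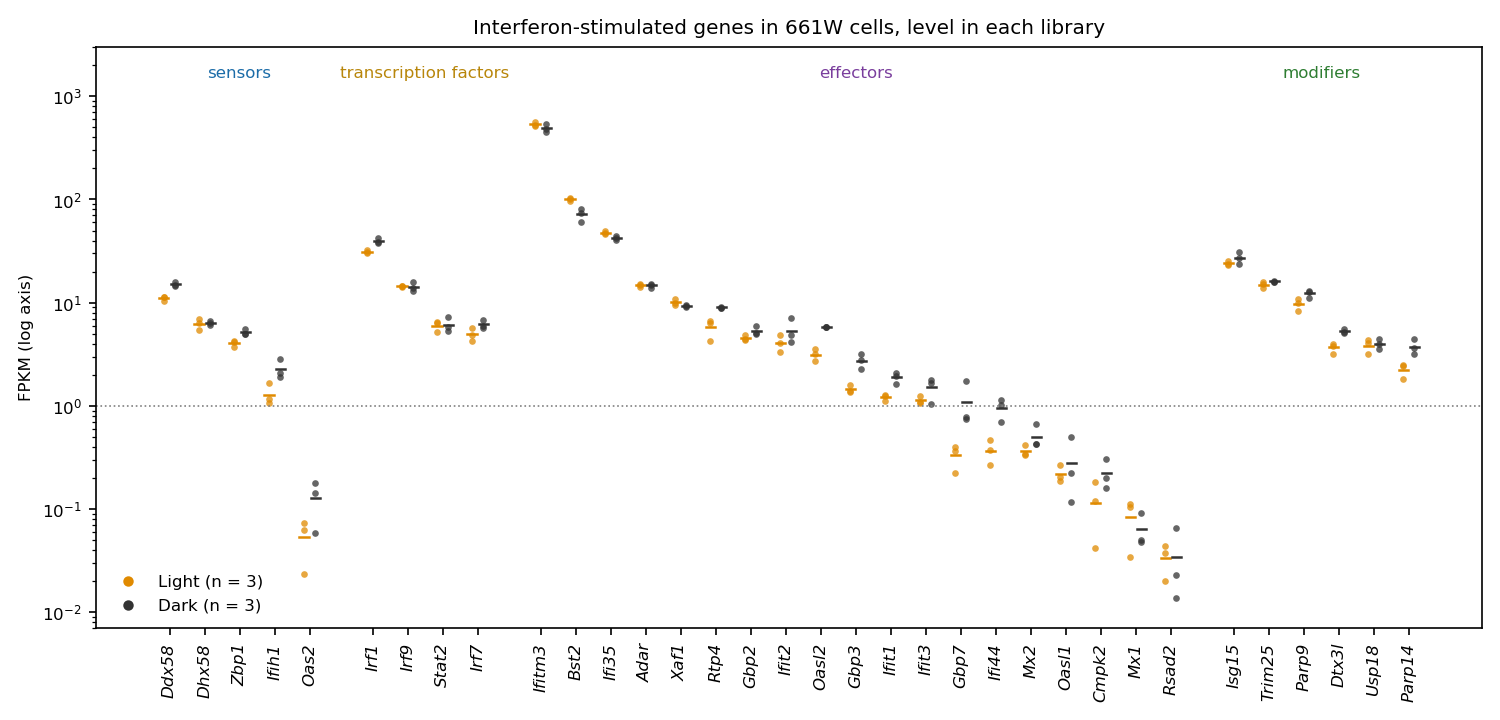
FPKM on a log axis for each of the 34 genes, ordered by level within each role, with orange points for the 3 Light libraries, dark points for the 3 Dark libraries and short bars for the group means. The dotted line marks 1 FPKM; 8 genes have a mean below it, and Ifitm3, at a mean of 512 FPKM, is the highest.

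The levels of the genes spanned a wide range, from 512 FPKM for Ifitm3 to 0.0341 FPKM for Rsad2 as means of the 6 libraries. Ifitm3, which encodes a membrane protein that blocks the fusion of viruses with endosomes, ranked above 99.0% of the genes tested. Bst2 (86.0 FPKM), Ifi35 (45.0 FPKM), Irf1 (35.4 FPKM) and Isg15 (25.7 FPKM) followed. The lowest of these genes stood at the other end of the scale. Rsad2, the gene of the antiviral enzyme viperin, Mx1, a dynamin-like GTPase gene, and Oas2 all had means under 0.1 FPKM.

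Promoters of interferon targets carry the interferon-stimulated response element, whose core is a pair of GAAA motifs with 2 bases between them. RefSeq promoter windows (build GRCm38.p6, 250 bases before to 50 after each annotated start) were at hand for 25 of the 34 genes. The core was found on either strand in 12 of these 25 genes (48.0%), against 3.99% of the 27025 genes in the table. The gamma-activated site, TTC and GAA with 3 bases between them, which is its own reverse complement, was found in 7 of the 25 (28.0%), against 9.55% of all genes. The core was present in 4 of the 7 genes with a window that fell and in the gene that rose, and in 7 of the 17 that were not called or not tested. It overlaps a copy of itself in Gbp3, Bst2 and Isg15, and overlaps a gamma-activated site in Bst2 and Ifitm3. A match describes the letters of a window and is not a measured binding site.

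**Figure D2:**
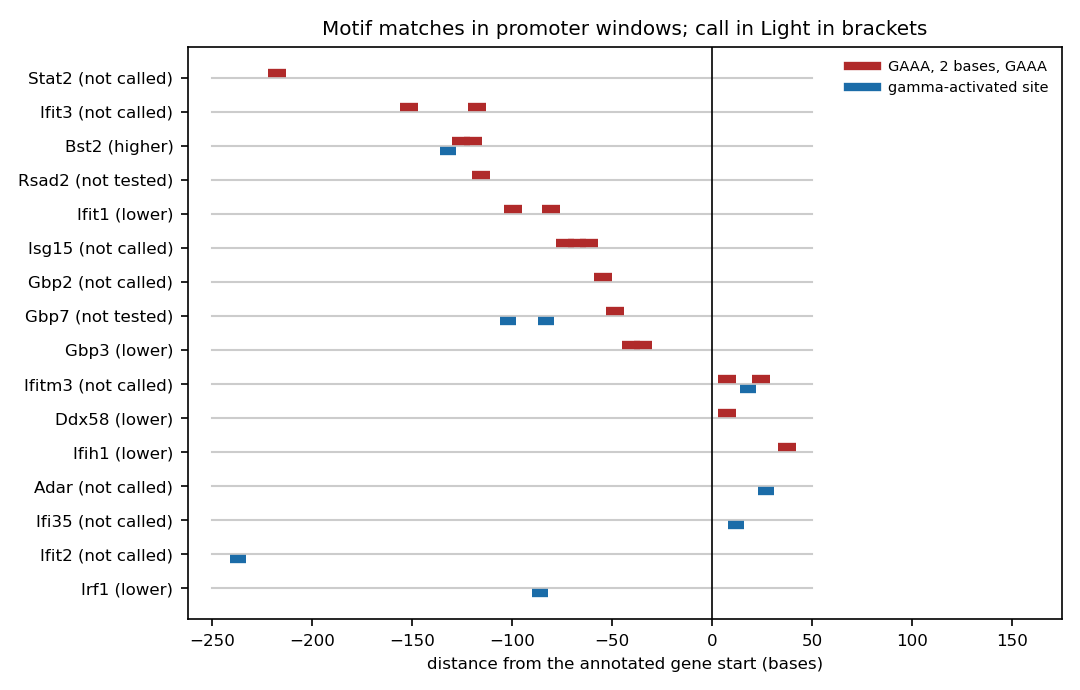
Positions of the response element core (red) and of the gamma-activated site (blue) in the promoter windows of the 16 genes that hold either, in bases from the annotated start (vertical line), with each gene's call in brackets. The cores of Ifit1, Isg15, Gbp2, Gbp7 and Gbp3 lie within 104 bases before the start, those of Ddx58, Ifih1 and Ifitm3 within 42 bases after it.

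The 4 called genes with a core and the smallest adjusted p-values are printed to show where the core lies in them. They were picked for holding a core. Oasl2, Irf1 and Dtx3l, which also fell, have none in their windows. Each stretch runs from position -140 to 20 relative to the start, 5′ to 3′ on the gene's strand, with the cores in capitals. Ddx58 (minus strand, chr4:40239806-40239965) has 1 core, which begins at base 3 after the start, and reads TTTC first because the core lies on the opposite strand. Gbp3 (plus strand, chr3:142559904-142560063) and Ifit1 (plus strand, chr19:34640749-34640908) have 2 each, on the opposite strand too. Bst2 (minus strand, chr8:71537453-71537612) has 2 overlapping cores on its own strand.
Ddx58: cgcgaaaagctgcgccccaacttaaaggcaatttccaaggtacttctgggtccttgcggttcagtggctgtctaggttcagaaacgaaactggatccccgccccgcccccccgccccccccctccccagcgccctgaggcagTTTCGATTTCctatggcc
Gbp3: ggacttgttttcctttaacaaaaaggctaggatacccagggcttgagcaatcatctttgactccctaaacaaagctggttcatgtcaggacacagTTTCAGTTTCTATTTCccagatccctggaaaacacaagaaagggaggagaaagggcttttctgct
Bst2: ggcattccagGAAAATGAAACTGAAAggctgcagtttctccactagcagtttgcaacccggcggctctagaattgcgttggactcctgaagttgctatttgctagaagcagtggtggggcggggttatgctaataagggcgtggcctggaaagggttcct
Ifit1: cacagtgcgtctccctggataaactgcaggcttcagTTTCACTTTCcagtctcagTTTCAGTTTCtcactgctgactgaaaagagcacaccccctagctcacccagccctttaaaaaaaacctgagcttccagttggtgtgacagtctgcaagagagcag

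Among the RNA sensors, 3 of the 4 tested were lower in Light, against 16.4% of all genes tested. The other did not differ beyond its spread. Ddx58 encodes RIG-I, the sensor of uncapped RNA ends, and its gene spans chromosome 4 from 40203773 to 40239828 in mm10. It stood at 11.4, 10.3 and 11.3 FPKM in the Light libraries, against 16.0, 14.9 and 14.5 FPKM in the Dark libraries. Every Light library lay below every Dark library, at 72.7% of the Dark mean. The log2 change was -0.43 ± 0.07 (SE; limma adjusted p = 0.00725), and this call was kept under every alternative tried, with changes of -0.56 to -0.33.

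Ifih1, the gene of MDA5, which binds long double-stranded RNA, was the lowest of the tested sensors. It stood at 1.65, 1.06 and 1.16 FPKM in Light, against 2.87, 1.92 and 2.09 FPKM in Dark, with no overlap and Dark 1 well above the other Dark libraries. Its log2 change of -0.52 ± 0.15 (limma adjusted p = 0.0358) was lost without Dark 1 (-0.40, adjusted p = 0.0806), Light 2 (0.122), Light 3 (0.115) or Dark 3 (0.0892). Ifih1 has a long, GC-poor transcript of 5470 bases with 42.8% GC. The 10% of genes with the longest transcripts had a median log2 change of -0.37, and the shortest 10% one of 0.23. With that trend removed, Ifih1 stood at -0.15 (adjusted p = 0.169, in a range of 0.000861 to 0.185 over its alternatives).

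Zbp1 encodes a sensor of Z-form nucleic acids that can start necroptosis. It stood at 4.22, 3.76 and 4.18 FPKM in Light, against 4.95, 5.51 and 5.01 FPKM in Dark, again without overlap. The log2 change was -0.28 ± 0.09 (limma adjusted p = 0.0429), a call lost when any single library was left out (0.0655 to 0.141). Dhx58, the gene of LGP2, which modulates the other RIG-I family members, stood at 6.35, 5.43 and 6.92 FPKM in Light, against 6.12, 6.66 and 6.32 FPKM in Dark. The groups overlapped, and the log2 change of -0.03 had a 95% interval of -0.26 to 0.20 (limma adjusted p = 0.812). Oas2, whose enzyme makes the 2-5A signal on double-stranded RNA, was listed at 0.0234 to 0.0734 FPKM in Light and 0.0588 to 0.181 FPKM in Dark and was not tested.

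**Figure D3:**
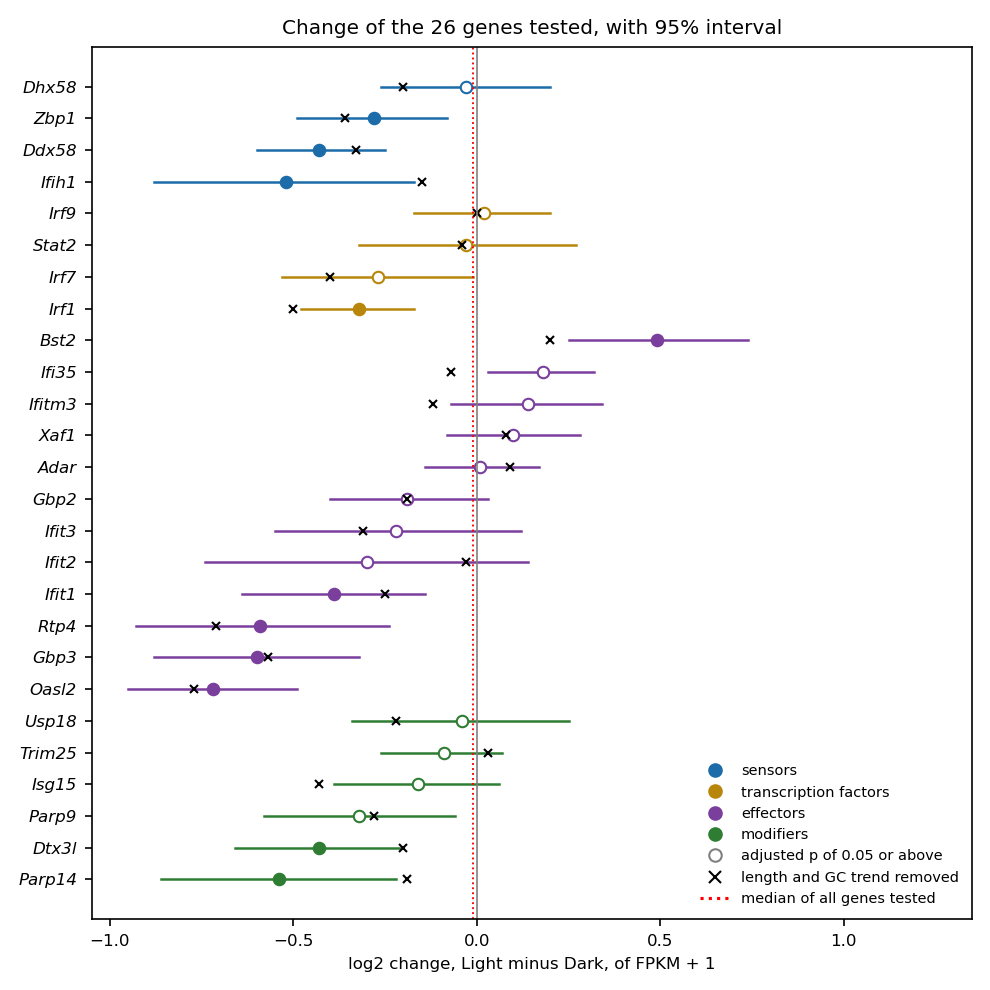
Log2 change, Light minus Dark, of FPKM + 1 for the 26 genes tested, coloured by role, with 95% intervals from limma; filled points passed an adjusted p of 0.05. Crosses give the change after the trend with transcript length and GC content was removed, and the dotted line is the median of all genes tested (-0.01); 10 filled points lie to its left and that of Bst2 to its right.

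Of the 4 transcription factors, Irf1 alone was called (25.0% lower, against 16.4% of all genes tested). Irf1, an early interferon gamma target that drives its own set of effectors, stood at 31.3, 32.1 and 30.5 FPKM in Light, against 37.9, 42.1 and 38.6 FPKM in Dark. Light lay at 79.3% of the Dark mean with no overlap, a log2 change of -0.32 ± 0.06 (limma adjusted p = 0.0112). The call was lost without Light 3 (-0.31, adjusted p = 0.0604), and the change was -0.50 to -0.28 over its alternatives (adjusted p of 0.00017 to 0.0604). Irf1 has a gamma-activated site 90 to 82 bases before its first start, in the plus strand window of chromosome 11.

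Irf7, the master regulator of the interferon alpha genes, did not pass the threshold although its groups did not overlap. It stood at 4.28, 5.64 and 4.90 FPKM in Light, against 5.75, 6.75 and 5.98 FPKM in Dark (log2 change -0.27 ± 0.11, limma adjusted p = 0.0883). It passed with the length and GC trend removed (-0.40, adjusted p = 0.00808) and with equal FPKM totals, with an adjusted p of 0.00808 to 0.558 over its alternatives.

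The DNA-binding and transactivating partners of the type I interferon complex stayed close to their Dark levels. Irf9 stood at 14.2, 14.5 and 14.4 FPKM in Light, against 13.9, 15.7 and 13.1 FPKM in Dark, and its 95% interval of the log2 change ran from -0.17 to 0.20. Stat2 stood at 6.46, 5.17 and 6.29 FPKM in Light, against 7.21, 5.34 and 5.85 FPKM in Dark, with an interval of -0.32 to 0.27. For both the Light values fell among the Dark values or overlapped them.

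Of the 19 effectors 12 were tested, of which 4 fell, 1 rose and 7 were not called, with a median log2 change of -0.20. That is 33.3% lower and 8.33% higher, against 16.4% and 19.2% of all genes tested. Oasl2, an OAS-like gene whose human relative OASL enhances signalling by RIG-I, had the largest decrease of all 26 on the log2(FPKM + 1) scale, while as a share of the Dark mean Gbp3 was slightly lower. It stood at 3.53, 2.72 and 3.19 FPKM in Light, against 5.77, 5.81 and 5.79 FPKM in Dark. The 3 Dark libraries were nearly identical and all 3 Light libraries lay below them, at 54.3% of the Dark mean. The log2 change was -0.72 ± 0.10 (limma adjusted p = 0.0033), and its call held under every alternative in which it was tested (-0.87 to -0.54). Its neighbour Oasl1, 11.0 kb away on chromosome 5, was too low to test, at 0.186 to 0.265 FPKM in Light and 0.117 to 0.497 FPKM in Dark.

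Guanylate-binding proteins are interferon-induced GTPases that assemble on the membranes of intracellular pathogens. Gbp3 stood at 1.4, 1.36 and 1.59 FPKM in Light, against 3.17, 2.28 and 2.76 FPKM in Dark. That is 53.0% of the Dark mean with no overlap (log2 change -0.60 ± 0.12, limma adjusted p = 0.0112), a call lost without Dark 3 (-0.59, adjusted p = 0.0538; 0.000468 to 0.0581 over its alternatives). Gbp2, 47.4 kb from Gbp3 on chromosome 3, stood at 4.83, 4.37 and 4.45 FPKM in Light, against 4.99, 5.90 and 5.09 FPKM in Dark. Its Light values all lay below the Dark ones, but the log2 change of -0.19 ± 0.09 did not pass (limma adjusted p = 0.146). Gbp7, 9.88 kb from Gbp3, had a mean under 1 FPKM and was not tested, at 0.369, 0.226 and 0.403 FPKM in Light, against 1.75, 0.75 and 0.787 FPKM in Dark. Reads of these related genes may be shared among them, and the sources used here do not say how the counting split such reads.

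The IFIT genes encode proteins that bind viral RNA ends, and 3 of them lie on chromosome 19 within a single cluster. Ifit1 stood at 1.27, 1.12 and 1.26 FPKM in Light, against 2.10, 1.64 and 1.97 FPKM in Dark, without overlap. Its log2 change was -0.39 ± 0.11 (limma adjusted p = 0.0312), and the call was lost without Light 1, Light 2, Light 3, Dark 1 or Dark 3 (adjusted p of 0.0562 to 0.112). Ifit2 (4.09 ± 0.758 FPKM in Light and 5.34 ± 1.52 FPKM in Dark; SD, n = 3 each) and Ifit3 (1.14 ± 0.0958 FPKM in Light and 1.51 ± 0.404 FPKM in Dark) overlapped between groups and were not called (log2 changes -0.30 and -0.22, limma adjusted p = 0.227 and 0.248). Ifit2 stood at -0.03 once the length and GC trend was removed.

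Rtp4, which encodes a chaperone of G protein-coupled receptors that also restrains viral replication, fell as well. It stood at 6.62, 4.22 and 6.42 FPKM in Light, against 8.87, 8.98 and 9.17 FPKM in Dark. Light 2 lay well below the other Light libraries, and no Light value reached the Dark ones. The log2 change was -0.59 ± 0.15 (limma adjusted p = 0.0228). The call was kept without Light 2, where the change was -0.41, and was lost without Light 3 (0.0537) or Dark 3 (0.0815), in a range of 0.00136 to 0.0815 over its alternatives.

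Bst2 was the exception in direction. It encodes tetherin, a surface protein that holds budding virus particles on the cell. It stood at 97.5, 103 and 101 FPKM in Light, against 60.3, 80.5 and 73.8 FPKM in Dark. Every Light library lay above every Dark library, at 141% of the Dark mean. The log2 change was 0.49 ± 0.11 (limma adjusted p = 0.0145), a call lost without Light 2 (0.0622), Light 3 (0.0614) or Dark 3 (0.0523). Bst2 has a short transcript of 792 bases, and with the length and GC trend removed its change was 0.20 (adjusted p = 0.0231; 9.92e-05 to 0.0622 over its alternatives).

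Ifitm3, Ifi35, Adar and Xaf1 were not called. Ifitm3 stood at 515, 561 and 531 FPKM in Light, against 449, 534 and 482 FPKM in Dark, with overlap (log2 change 0.14, 95% interval -0.07 to 0.34, limma adjusted p = 0.236). Ifi35, the gene of an interferon-induced leucine zipper protein, stood at 46.5, 49.6 and 47.1 FPKM in Light, against 40.5, 44.0 and 42.0 FPKM in Dark (log2 change 0.18, limma adjusted p = 0.0607). Its Light values lay above all Dark values. With the length and GC trend removed Ifitm3 stood at -0.12 and Ifi35 at -0.07. Ifitm3 was also below 0 with quantile normalization (-0.12) and with equal FPKM totals (-0.01), where Ifi35 stayed above 0 (0.07 and 0.04). Adar, which encodes the enzyme that edits adenosine in double-stranded RNA and so keeps MDA5 from sensing the cell's own transcripts, stood at 15, 14.2 and 15.3 FPKM in Light, against 14.8, 15.3 and 14.0 FPKM in Dark (95% interval -0.14 to 0.17). Xaf1, a gene of apoptosis control, had a log2 change of 0.10 (limma adjusted p = 0.306).

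The remaining effectors were too low to test. Ifi44, a gene of unsettled antiviral function, stood at 0.373, 0.269 and 0.465 FPKM in Light, against 1.13, 0.705 and 1.02 FPKM in Dark, with no overlap. With no filter on low values it was the one gene of the 34 added to the calls (log2 change -0.51, limma adjusted p = 0.0385), on a scale that understates changes of such low genes. Mx2 stood at 0.336 to 0.417 FPKM in Light and 0.423 to 0.666 FPKM in Dark. Cmpk2, a mitochondrial nucleotide kinase gene that lies 12.8 kb from Rsad2 on chromosome 12, stood at 0.0425 to 0.182 FPKM in Light and 0.161 to 0.303 FPKM in Dark. Mx1 (0.0341 to 0.112 FPKM in Light and 0.0485 to 0.0918 FPKM in Dark) and Rsad2 (0.0202 to 0.0438 FPKM in Light and 0.0139 to 0.0663 FPKM in Dark) overlapped between groups near 0.

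Among the 6 modifiers, 2 fell (33.3%, against 16.4% of all genes tested), and both belong to 1 cluster on chromosome 16. Dtx3l and Parp9 encode an E3 ubiquitin ligase and an ADP-ribose-binding partner that work as a complex, their genes overlap by 682 bases, and Parp14, the gene of an ADP-ribosyltransferase, lies 55.0 kb from Dtx3l. Dtx3l stood at 4, 3.21 and 3.84 FPKM in Light, against 5.55, 5.14 and 5.22 FPKM in Dark (log2 change -0.43 ± 0.10, limma adjusted p = 0.017). Parp14 stood at 2.46, 1.82 and 2.47 FPKM in Light, against 4.40, 3.18 and 3.61 FPKM in Dark (-0.54 ± 0.14, limma adjusted p = 0.0236). Parp9 stood at 10.0, 8.31 and 10.8 FPKM in Light, against 13.1, 11.1 and 12.7 FPKM in Dark, and missed the threshold (-0.32 ± 0.11, limma adjusted p = 0.0588).

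For all 3 genes of this cluster the Light libraries lay below the Dark libraries. Dtx3l and Parp14 have long transcripts of 5309 and 7417 bases, and both calls were lost with the length and GC trend removed (-0.20, adjusted p = 0.0603 for Dtx3l; -0.19, adjusted p = 0.0784 for Parp14), while Parp9, with 3548 bases, was then called (-0.28, adjusted p = 0.0354). Across the processing alternatives adjusted p-values lay between 0.00102 and 0.1 for Dtx3l, between 0.000454 and 0.118 for Parp14 and between 0.002 and 0.312 for Parp9. Without the strand of the counting, reads in the overlap of Dtx3l and Parp9 cannot be assigned to either. Leaving out Light 2, Light 3 or Dark 3 also ended the calls of Dtx3l (0.0588 to 0.0656) and Parp14 (0.0639 to 0.0837), and that of Parp14 was lost without Dark 1 (0.0515).

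Of the 6 modifiers, Isg15, Usp18 and Trim25 were not called either. Isg15, which encodes the ubiquitin-like protein, stood at 25.3, 23.4 and 23.7 FPKM in Light, against 23.9, 30.9 and 27.1 FPKM in Dark, with overlap through Dark 1 (log2 change -0.16 ± 0.10, limma adjusted p = 0.21). Its promoter window holds 3 overlapping cores 78 to 57 bases before the start. Isg15 was called with the length and GC trend removed (-0.43, adjusted p = 0.0039) and with equal FPKM totals (-0.30, 0.0337), in a range of 0.0039 to 0.448 over its alternatives. Usp18, the protease that removes ISG15 and damps receptor signalling, stood at 3.15, 4.05 and 4.34 FPKM in Light, against 3.53, 4.46 and 3.95 FPKM in Dark (95% interval -0.34 to 0.25). Trim25, the ubiquitin ligase of RIG-I, had a log2 change of -0.09 (limma adjusted p = 0.299), and was called with equal FPKM totals (-0.23, 0.0437; 0.0437 to 0.747 over its alternatives).

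**Figure D4:**
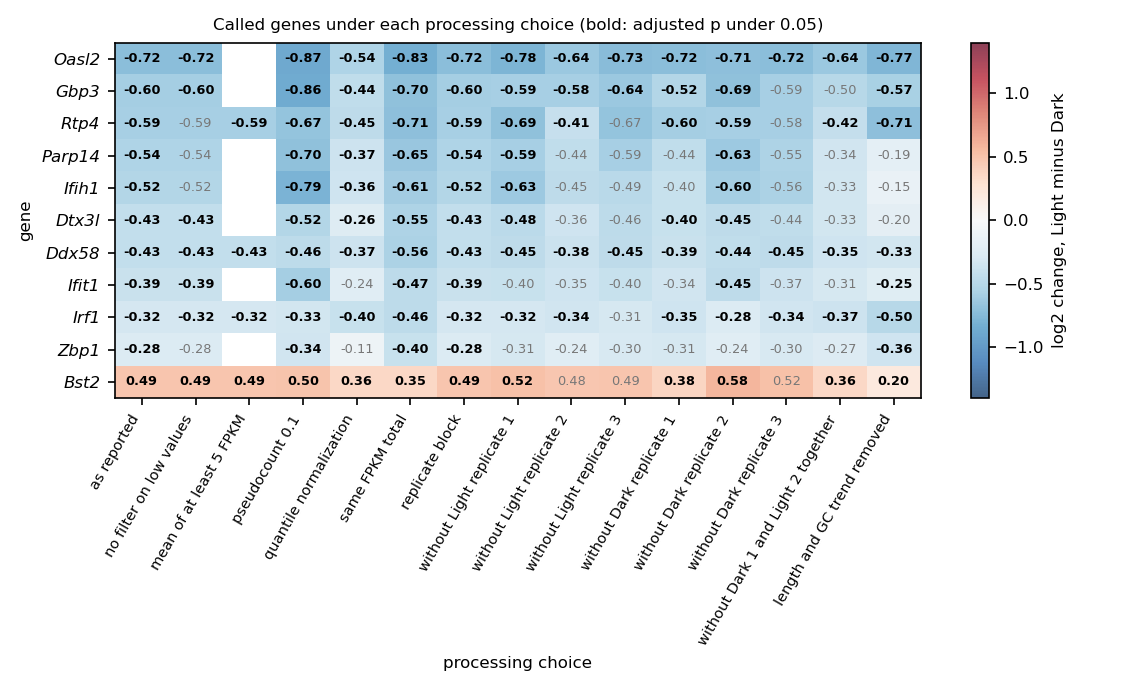
Log2 change, Light minus Dark, of the 11 called genes (rows) under each processing choice (columns), in bold where the adjusted p was under 0.05; blank cells are genes under a filter. All 10 genes that fell stay below 0 in every filled cell and Bst2 stays above 0, while bold cells thin out where Light 3 or Dark 3 is left out. Leaving libraries out could not reverse a direction, since the groups of these genes do not overlap.

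The rest of the pathway was read from lists of its ligands, receptors, adaptors and regulators. No interferon gene reached the level of a test: of 21 interferon genes 16 were listed at 0 in every library and 20 had a mean under 0.1 FPKM. The highest, Ifnz, had a mean of 0.274 FPKM. Ifnb1, the gene of interferon beta, was listed at 0.0589 FPKM in Light 1 and at 0 in the other 5 libraries.

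Of 11 receptor, JAK and STAT genes 10 were tested, of which 1 rose and 1 fell, with a median log2 change of -0.16. Both counts were below the shares over all genes tested (19.2% higher and 16.4% lower). Ifnar1, a chain of the type I interferon receptor, stood at 24.2, 22.0 and 23.8 FPKM in Light, against 26.4, 27.5 and 26.9 FPKM in Dark (-0.20 ± 0.06, limma adjusted p = 0.0431), a call lost without Light 1, Light 2, Light 3, Dark 1 or Dark 3 (0.0581 to 0.149). The other chain, Ifnar2, did not differ beyond its spread (25.2 ± 0.992 FPKM in Light and 24.4 ± 0.940 FPKM in Dark; SD, n = 3 each). The kinase gene Tyk2 rose by 0.28 ± 0.08 (limma adjusted p = 0.0328), a call lost when any library but Dark 2 was left out (0.0552 to 0.113), and with equal FPKM totals (0.15, adjusted p = 0.181).

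Of 16 adaptors and kinases that relay the sensors' signal 14 were tested, with 2 higher, 2 lower and a median of -0.03. Neither count exceeded the share over all genes tested (19.2% higher and 16.4% lower). The adaptor gene Mavs stood at 16.8 ± 0.336 FPKM in Light and 14.4 ± 0.782 FPKM in Dark (SD, n = 3 each; log2 change 0.21, limma adjusted p = 0.0478). Irf3, the constitutive factor below MAVS, stood at 27.6 ± 1.62 FPKM in Light and 22.5 ± 1.54 FPKM in Dark (0.28, limma adjusted p = 0.0286). Both calls were lost with equal FPKM totals and with the length and GC trend removed, where the changes were 0.08 for Mavs and 0.06 for Irf3. They were also lost without Light 2, Light 3 or Dark 3 (adjusted p of 0.111 to 0.15 for Mavs and 0.0824 to 0.113 for Irf3), and that of Mavs without Light 1 (0.104) or Dark 1 (0.14).

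The 2 genes that fell both encode sensors of double-stranded RNA outside the RIG-I family. Eif2ak2, the gene of the kinase PKR that halts translation, stood at 12.5, 9.38 and 11.1 FPKM in Light, against 25.6, 13.4 and 18.9 FPKM in Dark (-0.72 ± 0.22, limma adjusted p = 0.0391). Tlr3, the gene of the endosomal receptor, stood at 2.16, 1.86 and 2.78 FPKM in Light, against 5.47, 2.82 and 4.51 FPKM in Dark (-0.67 ± 0.21, limma adjusted p = 0.0433). In both the Dark libraries spread widely, with Dark 1 highest. Neither call was kept without Dark 1 (-0.51, adjusted p = 0.0572 for Eif2ak2; -0.50, 0.0847 for Tlr3), Light 2 (0.133 and 0.142), Light 3 (0.107 and 0.0743) or Dark 3 (0.111 and 0.131), nor was that of Tlr3 without Light 1 (0.0852) or with the length and GC trend removed (-0.26, 0.125). Over all alternatives the adjusted p was 0.000142 to 0.133 for Eif2ak2 and 0.00101 to 0.188 for Tlr3.

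Of 12 negative regulators 11 were tested, with 1 higher, 3 lower and a median of -0.15, against 19.2% higher and 16.4% lower over all genes. Samhd1, whose enzyme breaks down deoxynucleotides, stood at 28.9, 28.1 and 30.5 FPKM in Light, against 41.0, 37.8 and 37.9 FPKM in Dark. Its groups lay far apart, and the log2 change of -0.40 ± 0.06 (limma adjusted p = 0.00561) kept its call under every alternative tried. The STAT inhibitor genes Pias1 (-0.40, limma adjusted p = 0.0191) and Pias3 (-0.23, limma adjusted p = 0.0362) fell, and the phosphatase gene Ptpn6 rose by 0.32 (limma adjusted p = 0.0448). Each of these 3 calls was lost without Light 2, Light 3 or Dark 3 (adjusted p of 0.0722 to 0.0790 for Pias1, 0.0880 to 0.126 for Pias3 and 0.104 to 0.153 for Ptpn6). Those of Pias3 and Ptpn6 were also lost without Light 1 (0.0617 and 0.109), that of Pias3 without Dark 1 (0.0958) and that of Ptpn6 without Dark 2 (0.0591). With the length and GC trend removed neither Pias1 (adjusted p = 0.974) nor Ptpn6 (0.334) was called, and equal FPKM totals also ended the call of Ptpn6 (0.22, 0.132). Socs1 and Socs3, the feedback inhibitors of JAK kinases, were not called (0.13 and -0.15, limma adjusted p = 0.573 and 0.158).

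Of 53 further interferon-stimulated genes outside the 34, 36 were tested, with 8 lower, 2 higher, 26 not called and a median of -0.12, against 16.4% lower, 19.2% higher and a median of -0.01 over all genes tested. The 4 with the smallest p-values were Slfn2, Slfn9, Sp100 and Ifi211. Slfn2 and Slfn9, related Schlafen genes, moved in opposite directions: Slfn2 stood at 2.52, 3.57 and 2.72 FPKM in Light, against 1.45, 1.54 and 1.54 FPKM in Dark (0.64 ± 0.12, limma adjusted p = 0.0101), and Slfn9 at 14.7, 8.12 and 11.7 FPKM in Light, against 38.1, 19.5 and 26.4 FPKM in Dark (-1.20 ± 0.27, limma adjusted p = 0.017). Sp100, a nuclear body gene, fell by 0.43, and Ifi211, a gene of the cytosolic DNA sensor family, by 0.87 (limma adjusted p = 0.0171 and 0.0211). The call of Sp100 was lost without Light 3 (0.0736), with quantile normalization (0.0979) and with the length and GC trend removed (0.0523), and those of Slfn9 and Ifi211 without Light 2, Light 3 or Dark 3 (0.0601 to 0.0617 for Slfn9 and 0.0683 to 0.0830 for Ifi211). Both the Schlafen and the Ifi200 families have close copies, so reads may be divided among their members. With no filter on low values the calls of Ifnar1, Tyk2, Mavs, Irf3, Eif2ak2, Tlr3, Pias3, Ptpn6 and Ifi211 were lost (adjusted p of 0.0515 to 0.0946).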

How the data were processed

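The mRNA of 661W cells was sequenced, and the submitters' processing notes name HISAT2 and mm10. Which program computed expression, on which annotation and with which strand setting, is not given in the sources used here. Per the file headers, the values that the authors deposited are FPKM, in a series table and a file for each sample, with equal values in 24879 lines. The low values were not whole multiples of a shared step (the commonest ratio between libraries covered 0.32% to 0.53% of 948 low genes), so reads were not recovered. An exact 0 is reported as listed at 0.

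On log2(FPKM + 1), genes averaging 1 FPKM or more were tested with limma 3.58.1 (R 4.3.3, trended and robust eBayes, two-sided) in a model with group alone, and called at a Benjamini-Hochberg adjusted p under 0.05. Fold changes are Light minus Dark on this scale, which understates the change of low genes. The procedure was tested on simulated data. The members and lists were chosen with earlier results of these data known.

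All 34 members are named, with values per library for those called and for sensors and transcription factors. Of other lists the called genes with the 4 smallest p-values and a few fixed genes are named, except for a gene that is not reported here. Coordinates, transcript lengths and GC content (longest transcript) come from GENCODE release M21, in which 22022 of 22036 Ensembl identifiers were found. In 27 lines a symbol held as a date was restored. Alternatives were other filters (none, or a mean of 5 FPKM), a pseudocount of 0.1, quantile normalization, equal FPKM totals, each library left out in turn, a block on the replicate number, and removal of each library's loess fit (span 0.5) on transcript length and GC content. Leaving out Dark 1 and Light 2 together was added after the data were seen.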

Additional observations from a re-analysis of the deposited data

How the results depend on the processing

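Over all genes 3938 were called, against 2606 with no filter on low values, 6690 with the replicate number as a block, 1427 without Dark 1 and Light 2 together, and 1228 to 5874 with single libraries left out. Of the 34 interferon-stimulated genes 11 were called, against 4 of 15 tested at a mean of at least 5 FPKM, 16 with the block, 5 without Dark 1 and Light 2 together, and 3 to 12 with single libraries left out. Their median change of -0.25 was -0.03 at a mean of at least 5 FPKM, where the median of the effectors was 0.12 in place of -0.20, since the lower genes were no longer tested. It was -0.12 with quantile normalization, and the cause was not tested. The labels do not say whether the replicate numbers pair the libraries. Same-numbered libraries deviated together for numbers 1 and 2 (r = 0.687 and 0.641, across genes) but not for 3 (-0.089). With 3 libraries in each group this cannot decide the pairing. The 5 calls that the block adds hold only if the numbers mark pairs. All 11 called genes kept their direction in every alternative that tested them. Their groups did not overlap, so only quantile normalization, equal FPKM totals and the length and GC removal could have reversed it. Without read totals, the counting error of genes near 1 FPKM could not be computed. Their precision rests on the spread within the 2 groups of 3 libraries, which limma pools and moderates across genes.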

Other observations

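Samd9l, an interferon-stimulated gene outside the 34 that was picked after its values were seen, stood at 1.27, 0.573 and 1.06 FPKM in Light, against 6.48, 1.97 and 3.47 FPKM in Dark. All Light values lay below the Dark values, and the Dark libraries themselves spread widely. The same order of the Dark libraries, with Dark 1 highest and Dark 2 lowest, was seen for Slfn9, Eif2ak2, Tlr3, Ifi204 and Ifi211. Dark 1 was the highest of all libraries for 3760 of the 11068 genes tested, so its place is not particular to these genes. Cgas, the gene of the cytosolic DNA sensor, stood at 7.32 ± 0.704 FPKM in Light and 7.91 ± 0.334 FPKM in Dark, with overlap (SD, n = 3 each; limma adjusted p = 0.383).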
